A study of Mus musculus with 8 samples.

Results

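The AP-1 transcription factors are the subject here, as 10 genes of the Fos and Jun group measured in brain endothelial cells (ECs) with and without an active form of the kinase MAP2K1. The members were taken by name: 4 Fos genes (*Fos*, *Fosb*, *Fosl1* and *Fosl2*), 3 Jun genes (*Jun*, *Junb* and *Jund*) and 3 relatives that pair with them (*Atf3*, *Batf* and *Maff*). They are 10 of the 49315 gene identifiers in the count files, and all 10 were among the 16887 genes with enough counts to be tested. RNA sequencing was done on brain ECs of pups at day 9 of life (P9), with 1 library for each of 4 mutant and 4 wild-type pups. Mutant pups carried *R26 GT-Map2k1-GFP/+*, an insertion at the *Rosa* locus that gives K57N MAP2K1 and GFP from a CAG promoter once a stop cassette is cut out, together with the transgene *Tg-Cdh5CreER*, a tamoxifen-dependent Cre recombinase under the EC promoter of *Cdh5*. Tamoxifen was injected under the skin at P1 into the litters, which were bred on C57BL/6J. The labels give the control pups only as wild type, and the titles of the study's supplementary tables differ on whether they carried the Cre transgene. ECs were drawn with magnetic beads against CD31 from brain that had been minced and digested with warm collagenase. Per the study, a minority of the ECs carried the recombined allele, so each mutant library is a mixture of recombined and other ECs. Mutant ECs below means all ECs of the mutant pups, and the part of the recombined ECs and of the others in a change was not tested.

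AP-1 is a dimer of proteins that hold together through a leucine zipper and touch DNA through a basic region, the bZIP fold. Jun proteins pair with each other or with Fos proteins, whereas Fos proteins need a Jun partner, and ATF3, BATF and MAFF lack the activation domains of FOS and JUN and are mostly known as repressors or as modifiers of the partner they join. MAP2K1 phosphorylates the ERK kinases. ERK switches on *Fos* within minutes through ternary complex factors and SRF at the *Fos* promoter, and under lasting ERK activity *Fosl1* is a well-known late target. *Fos*, *Jun* and *Atf3* are also immediate early genes that answer stress, including the digestion of tissue into single cells.

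Between 24833373 and 34196955 reads per library were counted on genes. *Map2k1*, whose count includes the inserted cDNA, had between 12660 and 18687 normalized counts in the mutant libraries and between 1502 and 1758 in the wild-type libraries, which was 9.07-fold higher in mutant ECs (adjusted p = 2.84e-07, edgeR). Normalized counts are counts scaled by edgeR's TMM factors to the mean library size. The 10 endothelial markers were abundant in all libraries, with a summed level of 333764 to 398156 in mutant and 318235 to 382684 in wild-type libraries. Of these markers 3 rose and 3 fell at the threshold given below. *Cdh5* was 2.15-fold, *Emcn* 1.77-fold and *Pecam1* 1.44-fold higher, and *Kdr*, *Cldn5* and *Tek* had log2 fold changes of -0.59, -0.47 and -0.44. The study picked wild-type pups to match the mutants of their own litter. The labels do not name the litters, though 3 prefixes in the sample descriptions each cover equal numbers of both conditions, and the tests below do not use this layout unless stated.

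The main AP-1 genes were lower, not higher, in mutant ECs. *Fos* and *Jun* fell most, to 42.2% and 45.8% of the wild-type level, and *Jund*, *Fosb*, *Junb*, *Batf*, *Atf3* and *Maff* fell to between 56.6% and 81.1%. *Fosl1* alone among the 10 rose, to 136%, and *Fosl2* did not pass the test. In all, 8 members fell and 1 rose. The threshold throughout was 0.05 for the p of edgeR's quasi-likelihood test, adjusted after Benjamini and Hochberg over all genes tested. In this comparison 44.4% of all genes tested passed in either direction, 22.9% of them as lower and 21.5% as higher, so a pass by itself is common. The median log2 fold change of the 10 members was -0.58, beside -0.02 over all genes tested. When a log2 fold change beyond -1 or 1 was also required, *Fos* and *Jun* were differentially expressed, where 8.05% of all genes were called lower and 5.9% higher. For 7 members every mutant library was below every wild-type library, which held for 21.9% of all genes tested. No member had every mutant library above every wild-type library, which held for 20.6%, so that 42.5% of all genes tested were without overlap in either direction. In RNA of bulk cells, fewer cells that express a gene and less RNA per cell cannot be told apart.

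**Figure D1:**
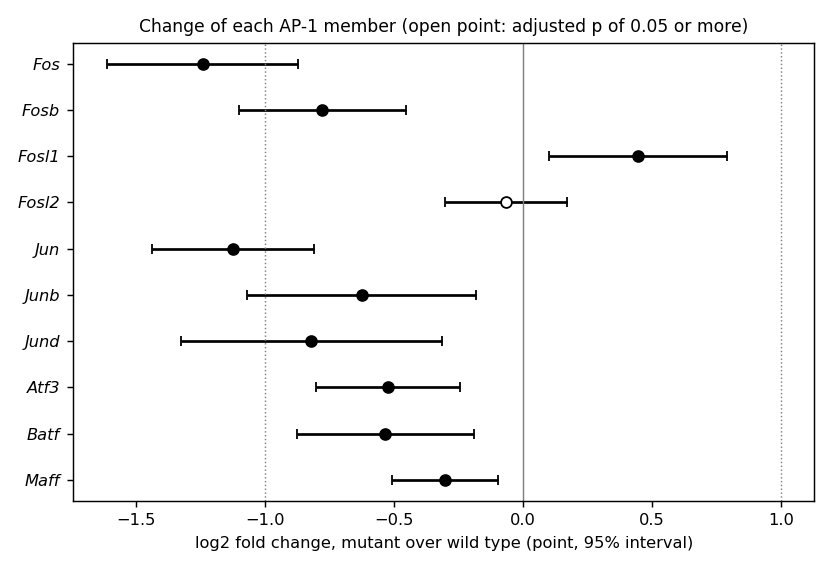
Log2 fold change of each of the 10 members, mutant over wild type (x axis, with the 95% interval from edgeR's fit of 4 against 4 libraries; members on the y axis). The intervals of 8 members lie below 0, that of *Fosl1* lies above 0 (0.10 to 0.79), and that of *Fosl2*, the open point, spans 0 (-0.30 to 0.17). Dotted lines mark the limits of -1 and 1.

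*Fos* encodes the prototype Fos protein. In GRCm38 its position is chromosome 12, 85473890 to 85477273, on the plus strand. The mutant libraries 1 to 4 had 14032, 15674, 20995 and 11016 normalized counts, and the wild-type libraries 1 to 4 had 39818, 38159, 33857 and 34238. The highest mutant library, mutant 3, stood well below the lowest wild-type library, and the wild-type libraries lay closer together than the mutant ones. *Fos* was 2.37-fold lower in mutant ECs, with a log2 fold change and standard error of -1.24 and 0.17 (adjusted p = 2.39e-04, edgeR). The log2 fold change stayed between -1.42 and -1.09 with each library left out in turn.

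*Fosb*, the nearest relative of *Fos* and likewise an immediate early gene, lies on the minus strand of chromosome 7 from 19302696 to 19310051. It had 41826, 42527, 57955 and 33879 normalized counts in the mutant libraries and 81378, 74500.2, 78668 and 67606 in the wild-type libraries. The groups did not overlap, and mutant 3 was again nearest to the wild-type level. *Fosb* was 1.71-fold lower in mutant ECs, or -0.78 ± 0.15 on the log2 scale (fit and its standard error, adjusted p = 0.00171, edgeR).

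*Fosl1*, the gene of the Fos protein FRA1, lies on the plus strand of chromosome 19 from 5447703 to 5455945. The mutant libraries had 1543, 1231, 1603 and 2119 normalized counts and the wild-type libraries 1024, 1102, 1397 and 1251. Mutant 2 lay among the wild-type libraries, so the groups overlapped, and mutant 4, the library with the lowest *Fos*, was the highest of all. *Fosl1* was 1.36-fold higher in mutant ECs, or 0.45 ± 0.16 on the log2 scale (fit and its standard error, adjusted p = 0.0384, edgeR). This call is weak. It was lost without mutant 3, mutant 4, wild type 1, wild type 2 or wild type 4, with adjusted p from 0.0596 to 0.0960, although the log2 fold change stayed above 0 at 0.31 to 0.56.

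*Fosl2*, which encodes FRA2, lies on the plus strand of chromosome 5 from 32135801 to 32157842. It had 32585, 34366, 29072 and 24735 normalized counts in the mutant libraries and 33413, 33062, 31035 and 28942 in the wild-type libraries. The groups overlapped widely, and mutant 2 was the highest library of the 8. The log2 fold change was -0.07, with a 95% interval from -0.30 to 0.17 (adjusted p = 0.640, edgeR). A fall of the size seen in *Fos* lies outside this interval. Without mutant 4 the log2 fold change was 0.041.

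**Figure D2:**
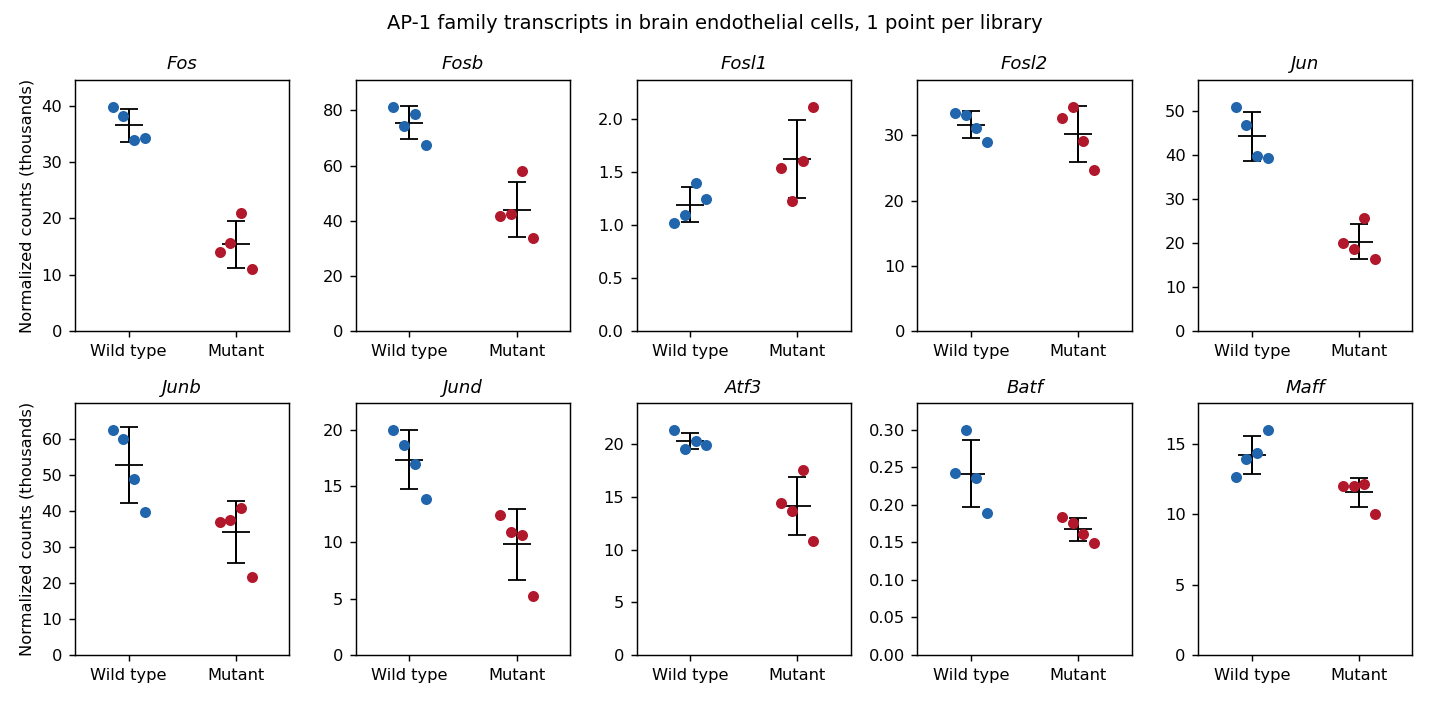
Normalized counts (y axis, starting at 0, with the scale factor in its label) of the 10 members in the 4 wild-type (blue) and 4 mutant (red) libraries, with the mean and SD of each group in black. For *Fos* all 4 mutant points, from 11016 to 20995, lie below all 4 wild-type points, from 33857 to 39818, and for *Fosl1* the mutant points reach from 1231 to 2119 against 1024 to 1397.

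*Jun* encodes the Jun protein with the strongest activation domain and is a direct substrate of JNK kinases. It lies on the minus strand of chromosome 4 from 95049034 to 95052222. The mutant libraries had 20097, 18729, 25785 and 16482 normalized counts and the wild-type libraries 50990.3, 46809, 39791 and 39429. All mutant libraries were far below all wild-type libraries. *Jun* was 2.18-fold lower, or -1.13 ± 0.14 on the log2 scale (adjusted p = 1.60e-04, edgeR), and its range with each library left out was -1.26 to -1.02.

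*Junb*, a weaker activator that can hold JUN back, lies on the minus strand of chromosome 8 from 84974484 to 84978718. It had 36931, 37305, 40868 and 21501 normalized counts in the mutant libraries and 62296, 59909.7, 48788 and 39768 in the wild-type libraries. Mutant 3 was above wild type 4, so the groups overlapped, and mutant 4 stood far below the other mutant libraries. *Junb* was 1.54-fold lower (log2 scale -0.63 ± 0.20, adjusted p = 0.0272, edgeR). The call was lost without mutant 1 (adjusted p = 0.0503), wild type 1 (0.0904) or wild type 2 (0.0715), where the log2 fold change was -0.64, -0.52 and -0.56. The exons of *Junb* share 173 bases with those of *Prdx2* on the other strand, and the sources used here do not say whether counting used the strand.

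*Jund*, which is known for steady expression and for a brake on growth, lies on the plus strand of chromosome 8 from 70698949 to 70700616. The mutant libraries had 12452, 10869, 10678 and 5227 normalized counts and the wild-type libraries 19928, 18613, 16965 and 13805. The groups did not overlap, and mutant 4 was at less than the level of any other library. *Jund* was 1.77-fold lower, or -0.82 ± 0.23 on the log2 scale (adjusted p = 0.0141, edgeR), and -0.59 without mutant 4. Of the 1668 exon bases of *Jund*, 877 are shared with *Gm11175* on the other strand, which had no counts. Whether reads on the shared bases were counted for *Jund* is not known, and its RPKM below divides by the full length. *Jun* shares 232 exon bases with *Junos* on the other strand.

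*Atf3*, a stress-induced partner of JUN that represses many promoters, lies on the minus strand of chromosome 1 from 191170296 to 191218039. It had 14444, 13713, 17554 and 10796 normalized counts in the mutant libraries and 21339, 19597, 20326 and 19978 in the wild-type libraries. The wild-type libraries lay close together, and all mutant libraries were below them. *Atf3* was 1.44-fold lower (log2 scale -0.52 ± 0.13, adjusted p = 0.00682, edgeR).

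*Batf*, which pairs with Jun proteins and is best known in T and B cells, lies on the plus strand of chromosome 12 from 85686669 to 85709087. It had the lowest counts of the 10 members, with 183, 175, 161 and 148 normalized counts in the mutant libraries and 242, 299, 236 and 189 in the wild-type libraries. The groups did not overlap, by the narrow gap between mutant 1 and wild type 4. *Batf* was 1.45-fold lower, or -0.53 ± 0.16 on the log2 scale (adjusted p = 0.0174, edgeR), and the call was lost without mutant 4 (-0.46, adjusted p = 0.0533) or wild type 2 (-0.42, adjusted p = 0.0578). The 5 lymphocyte markers summed to 77.0 to 225 normalized counts in mutant and 228 to 342 in wild-type libraries, with *Cd3e* and *Cd3d* at under 10 normalized counts in every library. Their part in the *Batf* value was not tested.

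*Maff* encodes a small Maf protein, a bZIP factor with no activation domain. It lies on the plus strand of chromosome 15 from 79347541 to 79359072. The mutant libraries had 12027, 12017, 12160.1 and 10011 normalized counts, and the wild-type libraries had 12689, 13967, 14364 and 15969. The groups did not overlap, but the gap between mutant 3 and wild type 1 was small. *Maff* had the smallest fall of the 8, 1.23-fold (log2 scale -0.30 ± 0.09, adjusted p = 0.0231, edgeR). It no longer passed without mutant 4 (-0.22, adjusted p = 0.0676), wild type 3 (-0.29, adjusted p = 0.0514) or wild type 4 (-0.25, adjusted p = 0.0590).

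The promoters of *Fos* and *Jun*, the members that fell most, of *Atf3*, which fell less, and of *Fosl2*, which did not pass the test, are printed to show which known motifs of these genes stand at the start site. Each run holds 250 bases before and 50 bases from the start site in RefSeq (GRCm38.p6), read 5′ to 3′ on the strand of the gene. The RefSeq start is that of the gene as given above for *Fos* and *Jun*, but lies 671 bases into the gene for *Fosl2* and 34706 bases into it for *Atf3*. The start of the *Jund* window lies 1210 bases before the gene start given above, and 2 of the 3 *Maff* windows start 920 bases before and 861 bases after it. Capitals mark the letters of the motifs found.
*Fos* promoter, chr12:85473640-85473939, plus strand: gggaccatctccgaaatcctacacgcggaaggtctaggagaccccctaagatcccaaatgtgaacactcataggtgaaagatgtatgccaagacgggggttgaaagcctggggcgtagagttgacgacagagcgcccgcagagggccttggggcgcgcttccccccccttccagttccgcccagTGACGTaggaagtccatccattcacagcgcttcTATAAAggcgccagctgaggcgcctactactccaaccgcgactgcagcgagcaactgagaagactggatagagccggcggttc
*Jun* promoter, chr4:95052173-95052472, minus strand: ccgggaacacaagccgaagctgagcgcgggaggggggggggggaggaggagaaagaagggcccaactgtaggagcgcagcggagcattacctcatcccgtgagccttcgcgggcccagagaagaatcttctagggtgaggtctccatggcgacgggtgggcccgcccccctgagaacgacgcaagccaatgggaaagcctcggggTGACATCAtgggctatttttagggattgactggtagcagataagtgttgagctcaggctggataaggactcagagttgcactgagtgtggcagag
*Atf3* promoter, chr1:191183284-191183583, minus strand: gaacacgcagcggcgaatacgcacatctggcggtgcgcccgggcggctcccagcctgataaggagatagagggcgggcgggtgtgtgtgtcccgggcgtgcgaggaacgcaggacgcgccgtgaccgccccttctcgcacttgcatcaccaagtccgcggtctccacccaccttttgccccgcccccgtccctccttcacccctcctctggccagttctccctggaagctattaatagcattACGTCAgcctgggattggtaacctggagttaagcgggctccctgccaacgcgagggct
*Fosl2* promoter, chr5:32136222-32136521, plus strand: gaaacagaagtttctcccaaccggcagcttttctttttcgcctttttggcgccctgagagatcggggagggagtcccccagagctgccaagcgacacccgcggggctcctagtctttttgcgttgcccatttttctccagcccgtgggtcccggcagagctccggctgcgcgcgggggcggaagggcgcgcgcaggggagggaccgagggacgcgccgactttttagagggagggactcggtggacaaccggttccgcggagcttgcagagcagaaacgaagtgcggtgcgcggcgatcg
In the *Fos* run the capitals mark TGACGT, the core of a cAMP response element, from 66 to 61 bases before the start site, and the TATAAA letters from 33 to 28 bases before it. The *Jun* run holds TGACATCA, a variant of that element, from 45 to 38 bases before the start site, and the *Atf3* run holds TGACGT on the other strand from 8 to 3 bases before it. The *Fosl2* run, at its inner start, holds none of the motifs searched. The 9 members with a RefSeq window have 11 windows in all. TGACGT on either strand was found in 4 of the 11 (1 each of *Fos*, *Atf3*, *Batf* and *Maff*) and in 7.51% of all 32851 windows. In *Maff* it is part of the whole element TGACGTCA, which 1.79% of all windows hold. TGACATCA was found in *Jun* and in 1 of the 3 windows of *Maff*, and in 3.62% of all windows, and TATAAA in *Fos* and *Junb* and in 13.6% of all windows. The consensus letters of the AP-1 site, TGACTCA or, on the other strand, TGAGTCA, were in no window of a member and in 5.20% of all windows. AP-1 proteins can also bind sites that differ from these letters. The CArG box bound by SRF was likewise in no window of a member and in 1.63% of all. A match is only a match of letters, and these windows are short. Sites more than 250 bases before the start site were not searched, so no match here does not mean that a gene lacks the site.

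The change was not equally deep in all mutant libraries. Mutant 4 had the lowest level of its group for 9 of the 10 members and the highest for *Fosl1*, while mutant 3 had the highest level for 6 members. *Fos* was at 30.2% of the wild-type mean in mutant 4, at 38.4% in mutant 1, at 42.9% in mutant 2 and at 57.5% in mutant 3. *Jun* was at 37.2%, 45.4%, 42.3% and 58.3% in the same libraries, and *Jund* at 30.2%, 71.9%, 62.7% and 61.6%. *Fosl1* was at 178%, 129%, 103% and 134%. Among the wild-type libraries, wild type 1 was highest for 7 members and wild type 4 lowest for 6.

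**Figure D3:**
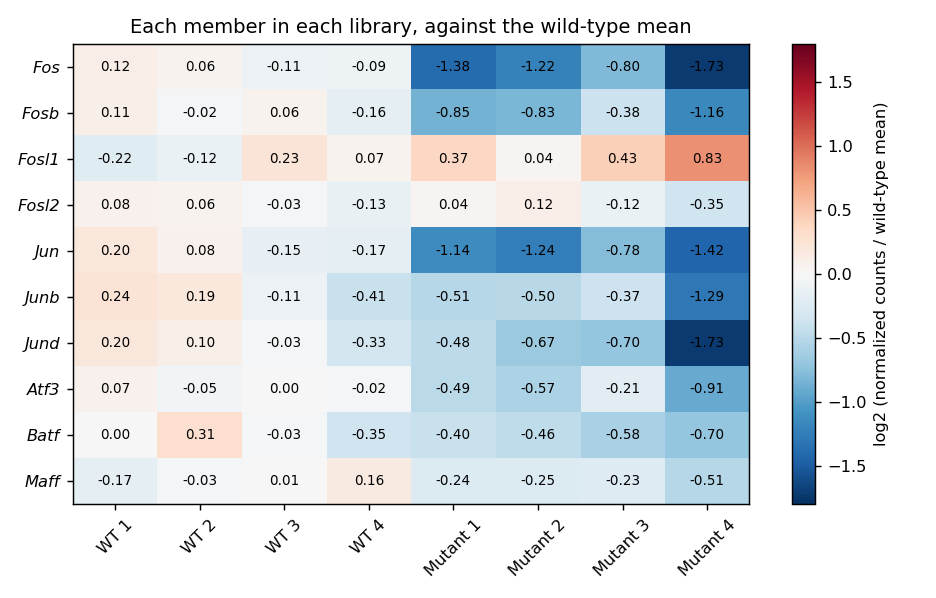
Log2 of the normalized counts over the wild-type mean for each member (down) in each library (across, wild type as WT), from blue for lower to red for higher. Mutant 4 is the darkest blue column for *Fos* (30.2% of the wild-type mean) and *Jund* (30.2%) and the darkest red for *Fosl1* (178%), and *Fosl2* stays pale.

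Of the 3 prefixes in the sample descriptions, 1 covers replicates 1 and 2 of both conditions, another replicate 3 and the last replicate 4. Within each of the 3, *Fos*, *Fosb*, *Jun*, *Junb*, *Jund*, *Atf3*, *Batf* and *Maff* were lower in mutant ECs and *Fosl1* was higher. The log2 difference of *Fos* within a prefix was between -1.64 and -0.69 and that of *Jun* between -1.33 and -0.63. *Fosl2* lay between -0.23 and 0.01. The prefixes of replicates 3 and 4 hold 1 library per condition and give no test on their own. With the prefix as a term in the edgeR fit, the log2 fold change was -1.28 for *Fos*, -1.14 for *Jun* and 0.43 for *Fosl1*. The 10 members kept their side of the threshold, and the adjusted p of *Fosl1* was 0.00802 (edgeR). What the prefixes stand for is not given in the sources used here.

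The members also varied together between pups of the same condition. After the mean of each condition was removed from the log2 normalized counts, 35 of the 36 pairs among the 9 members other than *Fosl1* had a positive Pearson correlation over the 8 libraries, with a median of 0.67 and a highest value of 0.94 for *Fosb* with *Atf3*. *Fosl1* had a negative correlation with each of the other 9, from -0.89 with *Fosl2* to -0.25. These are descriptions over 8 libraries whose members share the library, its digestion and its depth. Mutant 4, lowest of its group for 9 of the 10 members, enters every pair. The share of positive pairs over all genes was not computed. By the same measure, the genes most like *Fos* among 11386 genes were *Sp5* (r = 0.98), *D2hgdh* (0.98) and *Gstm4* (0.98). Those most like *Junb* were *Hic1* (0.998), *Rps6kc1* (0.99) and *Csrnp1* (0.99), and those most like *Fosl1* were *Arl8a* (0.99), *Atp6v1b2* (0.98) and *Spp1* (0.98). A search of 11386 genes over 8 libraries gives some very high values by itself, so these genes are not shown to be regulated together.

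Levels of different genes were compared per length, as RPKM, the TMM-scaled counts divided by exon length in kilobases and by library size. In wild-type ECs *Junb* stood highest at 773 ± 153 RPKM (SD, n = 4), above *Fos* at 524 ± 42.2, *Jun* at 469 ± 59.6, *Fosb* at 409 ± 32.4, *Jund* at 351 ± 53.5 and *Atf3* at 318 ± 11.7. From *Fos* to *Atf3* each neighbour in this order overlapped with the next. *Maff* at 227 ± 21.6, *Fosl2* at 110.3 ± 7.21, *Fosl1* at 23.6 ± 3.27 and *Batf* at 8.54 ± 1.59 followed, each with all libraries below those of the gene before it. In mutant ECs *Junb* was still highest at 501 ± 127 RPKM (SD, n = 4). *Fosb*, *Fos*, *Atf3*, *Jun*, *Jund* and *Maff* followed at means from 238 down to 184, and across libraries each of these overlapped with its neighbour. *Fosl2* at 105 ± 14.8, *Fosl1* at 32.1 ± 7.29 and *Batf* at 5.91 ± 0.542 again closed the order without overlap. Within the same library, *Fosb* was above *Fos* in every mutant library, at 226, 230, 314 and 183 against 202, 225, 302 and 158 RPKM. In every wild-type library *Fos* was above *Fosb*.

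Summed over the family, both arms of AP-1 were lower in mutant ECs. The 4 Fos genes together had 572, 599, 748 and 469.7 RPKM in the mutant libraries and 1149, 1088, 1048 and 983 in the wild-type libraries. The 3 Jun genes together had 1007, 966, 1089 and 596 RPKM in the mutant libraries and 1858, 1752, 1481 and 1281 in the wild-type libraries. Neither sum overlapped between the groups, and the mutant mean was 0.560 of the wild-type mean for the Fos genes and 0.574 for the Jun genes. The log2 ratio of the Fos sum to the Jun sum was -0.60 ± 0.20 in mutant and -0.57 ± 0.15 in wild-type libraries (SD, n = 4 each), a difference smaller than the spread.

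The make-up of the Fos pool moved. *Fos* took 36.7% ± 2.88 of the Fos sum in mutant and 49.1% ± 1.84 in wild-type libraries (SD, n = 4 each), with no overlap, and *Fosb* 39.7% ± 1.54 and 38.3% ± 1.65, with overlap. *Fosl2* took 18.0% ± 3.02 and 10.3% ± 0.191, and *Fosl1* 5.64% ± 2.26 and 2.23% ± 0.416, both without overlap. In the Jun pool *Junb* took 54.6% ± 1.62 in mutant and 48.3% ± 1.99 in wild-type libraries, without overlap, while *Jun* took 24.0% ± 4.06 and 29.6% ± 2.03 and *Jund* 21.4% ± 3.20 and 22.1% ± 0.766, both with overlap.

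**Figure D4:**
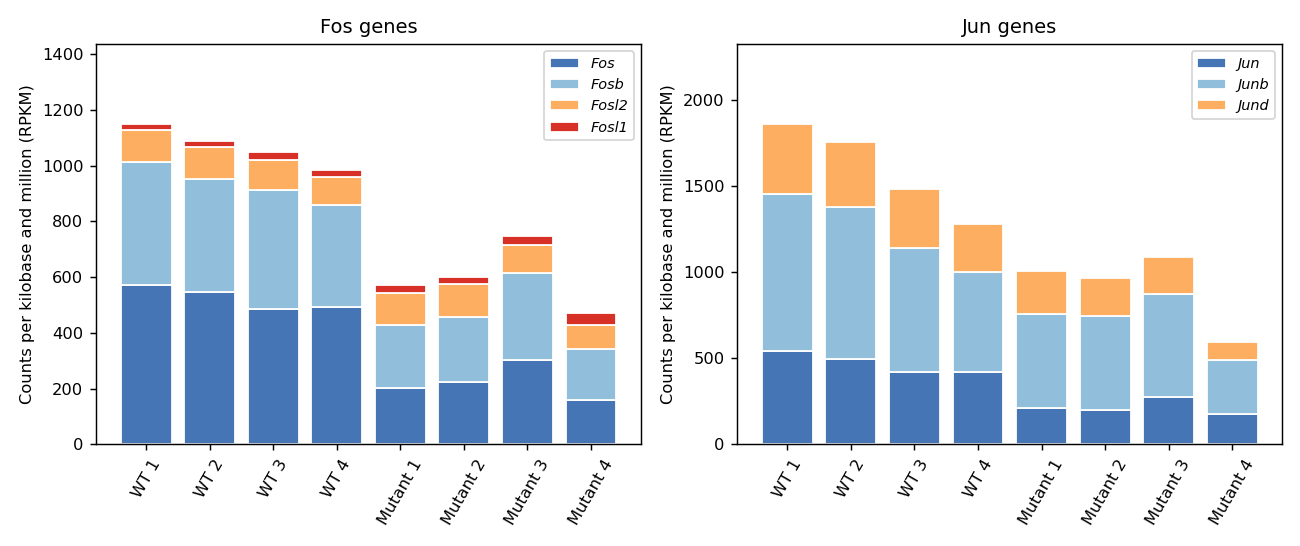
RPKM of the 4 Fos genes (left) and the 3 Jun genes (right), stacked to their sum, in each wild-type (WT) and mutant library. The Fos sums reach from 983 to 1149 in wild-type and from 469.7 to 748 in mutant libraries, and *Fosl2* is 105 RPKM high on average in mutant and 110.3 in wild-type libraries while *Fos* is 222 and 524.

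How far members moved apart is described by 4 log2 ratios of the normalized counts of 2 members within a library. They are given without a test, since the genes were chosen with their changes known. The log2 ratio of *Fosl1* to *Fos* was -3.18, -3.67, -3.71 and -2.38 in the mutant libraries and -5.28, -5.11, -4.60 and -4.77 in the wild-type libraries, a mean shift of 1.71 or 3.26-fold. That of *Fosl2* to *Fos* was 1.22, 1.13, 0.47 and 1.17 in mutant and -0.25, -0.21, -0.13 and -0.24 in wild-type libraries, a shift of 1.20. Counts depend on transcript length, and per length *Fos* stayed above *Fosl2* in every library, with 158 to 302 RPKM against 86.3 to 119.9 in the mutant libraries. That of *Junb* to *Jun* shifted by 0.49, from 0.24 ± 0.15 to 0.73 ± 0.27 (SD, n = 4 each). The ratio of *Jund* to *Jun* overlapped between the groups, with a shift of 0.26.

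Few transcripts of the kinases and factors that act on AP-1 passed the test. Of 19 such genes, 3 rose and 2 fell, with a median log2 fold change of -0.03. Here and for the lists below, the share over all genes tested was 21.5% higher and 22.9% lower. *Rps6ka2*, an RSK kinase downstream of ERK, rose 1.44-fold (adjusted p = 0.00272, edgeR), *Map2k4*, which activates JNK, 1.35-fold (0.00371) and *Elk3*, a ternary complex factor, 1.29-fold (0.00629). *Srf*, the partner of the ternary complex factors, fell 1.29-fold from 3577 ± 270.3 to 2771 ± 248 normalized counts (SD, n = 4; adjusted p = 0.00493, edgeR). *Mapk10* was the other gene that fell, at under 50 normalized counts in both group means. Transcript levels say nothing of phosphorylation.

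Of 22 other bZIP genes that can pair with AP-1 proteins, 3 rose and 4 fell, with a median of 0.02. Over all genes tested, 21.5% rose and 22.9% fell. *Creb5* rose 1.71-fold (adjusted p = 0.00132, edgeR) and *Nfe2l2*, the gene of the oxidative stress factor NRF2, 1.22-fold (0.0413). *Maf* fell 1.81-fold (0.00114), *Ddit3*, the stress factor CHOP, 1.54-fold (3.41e-04) and *Mafk* 1.15-fold (0.0468), of which *Mafk* no longer passed under 10 of 16 alternatives and *Nfe2l2* under 6. *Batf3* and *Mafa* passed as well at under 100 normalized counts.

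Genes known as transcriptional output of ERK mostly rose. Of 13, 9 rose and 3 fell, and the median was 0.81 on the log2 scale. *Etv4*, an ETS factor, rose 19.4-fold from 74.6 ± 10.3 to 1451 ± 228 normalized counts (SD, n = 4; adjusted p = 1.27e-07, edgeR), *Spred3*, an inhibitor of RAS to ERK signalling, 3.07-fold and the ERK phosphatase gene *Dusp4* 2.14-fold. *Spry1* fell 1.83-fold, *Dusp6* 1.33-fold and *Phlda1* 1.35-fold, the last of which no longer passed under 6 of 16 alternatives.

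Genes that textbooks list as AP-1 targets mostly rose, although most AP-1 genes fell. Of the 22 listed, 19 could be tested, and *Mmp1a*, *Mmp10* and *Ereg* had too few counts. Of the 19, 13 rose and 1 fell, the median was 1.11 on the log2 scale, and 10 of the 13 passed the limit of 1. *Plau*, the urokinase gene, rose 5.47-fold from 1391 ± 808 to 7619 ± 2062 normalized counts (SD, n = 4; adjusted p = 3.34e-04, edgeR), *Mmp14*, a membrane-bound matrix protease, 3.67-fold (9.57e-06) and *Spp1*, which encodes osteopontin, 2.98-fold (3.66e-04). *Ccnd1*, the cyclin D1 gene, fell 1.48-fold (0.00293). These genes have other regulators too, and binding of AP-1 was not measured.

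**Figure D5:**
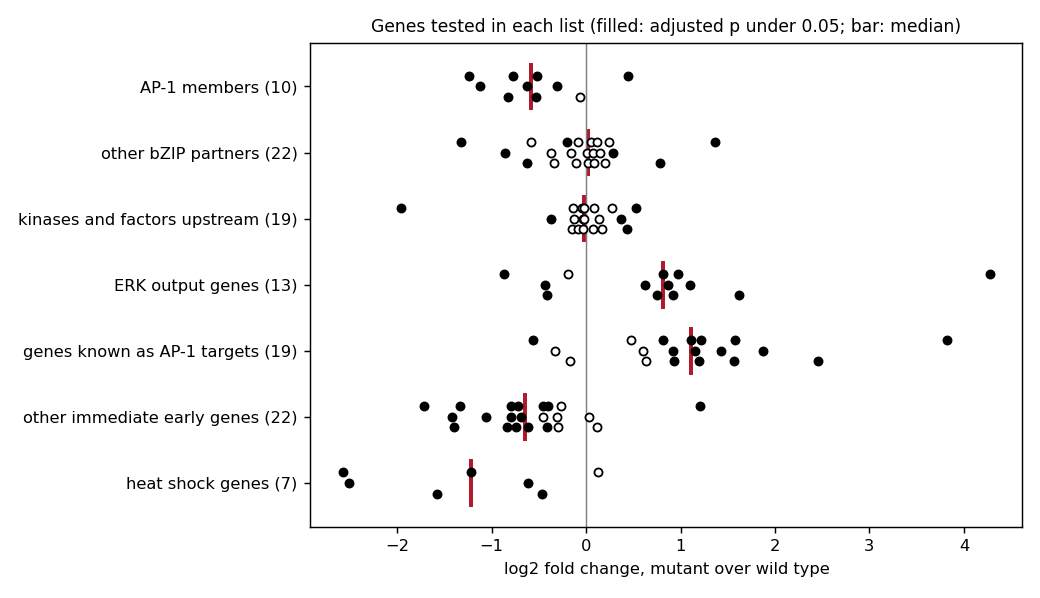
Log2 fold change, mutant over wild type (x axis), of the genes tested in each list (1 point per gene, filled where the adjusted p was under 0.05, red bar at the median, number of genes in brackets). The medians of the AP-1 members (-0.58), the other immediate early genes (-0.65) and the heat shock genes (-1.22) lie below 0, and those of the ERK output genes (0.81) and the genes known as AP-1 targets (1.11) above it.

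The AP-1 genes fell along with other immediate early genes. Of 22 genes of this kind, 15 fell and 1 rose, and the median over all 22 was -0.65 on the log2 scale. The Krüppel-like factor genes *Klf2* and *Klf4*, both known for their answer to blood flow, fell 3.29-fold and 2.64-fold (adjusted p = 4.38e-05 and 1.01e-04, edgeR) and *Ccn1*, which encodes a matrix protein, 2.68-fold (2.12e-04). *Myc* rose 2.30-fold, from 1136 ± 109 to 2616 ± 453 normalized counts (SD, n = 4; adjusted p = 5.71e-05, edgeR). Mutant 4 was the lowest library for *Klf2*, *Klf4* and *Ccn1*, as for most AP-1 genes.

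Heat shock genes, which digestion of tissue is known to induce, fell as well. Of 7, 6 fell, and the median was -1.22. *Hspa1a* had 2324, 1512, 2594 and 2204 normalized counts in the mutant libraries and 14017, 15612, 6946 and 12684 in the wild-type libraries. Its near-identical copy *Hspa1b* fell 5.96-fold, and reads of the pair may have been split in counting. *Hspb1* fell 2.99-fold (adjusted p = 4.12e-05, edgeR). Mutant 2 was the lowest library for *Hspa1a*, *Hspa1b*, *Dnajb1*, *Hsph1* and *Hsp90aa1*, and mutant 4, lowest for *Fos* and *Jun*, was lowest for *Hspb1*. The part of a different answer to digestion in the AP-1 values was not tested.

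Markers of other cells moved with the conditions too. All 5 oligodendrocyte markers fell, with a summed level of 751 to 1622 normalized counts in mutant and 2526 to 7454 in wild-type libraries, and all 4 red blood cell markers fell, from 15003 to 25951 in wild-type to 2455 to 8127 in mutant libraries. Of 5 neuron markers 3 fell (573 to 801 in mutant and 825 to 1508 in wild-type libraries). The 9 microglia and macrophage markers did not separate the groups, with 3756 to 12816 in mutant and 4665 to 15993 in wild-type libraries and adjusted p from 0.177 to 0.980 (edgeR), and neither did the 10 pericyte and smooth muscle markers in sum (20981 to 35506 and 19898 to 37112), of which 3 rose. Astrocyte markers summed to 457 to 1249 and 502 to 1089 (1 of 5 fell), fibroblast markers to 15392 to 19506 and 11803 to 16991 (2 of 4 rose and 1 fell) and neutrophil markers to 168 to 363 and 184 to 419.7 (1 of 3 tested fell). The part of any of these cells in the AP-1 values was not tested.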

How the data were processed

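Poly(A) RNA of brain ECs was sequenced in 8 libraries, 1 per pup. Per the labels and the paper's methods, the authors used Trimmomatic for trimming and STAR for alignment to GRCm38, and deposited unnormalized counts per gene. The counting program, the annotation and the use of strand are not given in the sources used here. A second deposited table, of counts divided by DESeq2 size factors, was not used. Symbols came from GENCODE vM21, and 48970 of 49315 identifiers matched.

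Tests were run with edgeR 4.0.16 under R 4.3.3 (filterByExpr with a minimum count of 10, TMM, glmQLFit and glmQLFTest, condition only). Differential expression used the study's limits, a log2 fold change beyond -1 or 1 with an adjusted p under 0.05. Log2 ratios used a pseudocount of 1, and correlations a prior count of 2. Fits were tested on simulated data. The named genes are the members, *Map2k1*, the 3 highest and 3 lowest passing genes of each list with 100 or more normalized counts in the higher group mean, and the 3 genes most correlated with *Fos*, *Junb* and *Fosl1*. Members and lists were chosen with earlier results of these data known. Motifs were chosen after the data were seen. Family sums, shares and ratios are given without a test, as the members were not chosen independently. Libraries of a condition differed by more than sampling noise (chi-square per degree of freedom from 7.43 to 43.0 over 12 pairs). Alternatives were DESeq2 1.42.0, limma 3.58.1 voom, other normalizations and filters, blocks and each library left out. Single values of some list genes are not reported here.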

Additional observations from a re-analysis of the deposited data

Results flagged for a closer look

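*Maff* in the mutant libraries stood out because mutant 4, at 10011 normalized counts, lay far from the other 3, which lay between 12017 and 12160.1. Its gap to the nearest library was 0.933 of the range of the group, past the 95% critical value of Dixon's ratio for 4 samples. The log2 ratio of *Fosl2* to *Fos* in the mutant libraries stood out because mutant 3, at 0.47, lay far from the other 3, which lay between 1.13 and 1.22, with a gap of 0.889 of the range. Of 38 groups of 4 values examined, 2 stood out in this way, and chance gives about 1 in 20.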

How the results depend on the processing

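Of the 160 values of the 10 members under 16 alternatives each, 144 kept their direction and their side of the threshold, 15 kept the direction and no longer passed, and the log2 fold change of *Fosl2* turned to 0.041 without mutant 4, over a left-out range of -0.13 to 0.041 (adjusted p = 0.739, with 0.297 to 0.912 over its alternatives). *Fos*, *Fosb*, *Jun*, *Jund* and *Atf3* passed under all 16, with highest adjusted p of 0.00140, 0.00838, 8.92e-04, 0.0470 and 0.0266. Apart from the left-out libraries, *Fosl1* no longer passed with upper quartile normalization (0.38, adjusted p = 0.0835) or with only genes of a mean of at least 100 counts (0.43, 0.0530), over a range of 0.00802 to 0.0960. Of the other named genes, *Mafk* no longer passed under 10 alternatives and *Nfe2l2* and *Phlda1* under 6 each. The cause was not tested. The median log2 fold change of all genes was between -0.09 and 0.02 under all fits.

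Where a mean of 100 or more normalized counts was required, 590 genes were differentially expressed as higher and 604 as lower, against 996 and 1360. That fit tested 11395 genes in place of 16887. With each library left out, these counts ran from 934 to 1152 and from 1178 to 1604, and the genes past the adjusted p from 3133 to 3596 higher and 3006 to 3723 lower. With the replicate number as a block, 3973 genes were higher and 4189 lower, against 3631 and 3873, and no call on a member changed. With the label prefix as a block, 4182 were higher and 4428 lower, again with no call on a member changed. Deviations of libraries with the same number correlated at 0.20, 0.21, 0.29 and 0.02, so the numbers, which no label ties to a litter, were not taken as pairs, and 3 of 8 libraries correlated best with their own number.

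With an absolute log2 fold change over 1 required as well, 0 members were higher and 2 lower, 1 other bZIP gene was higher and 1 lower, 0 upstream genes were higher and 1 lower, 3 ERK output genes were higher and 0 lower, 0 AP-1 targets were lower and 5 immediate early genes were lower. With RLE normalization 5 other bZIP genes rose. With each library left out, the log2 Fos sum differed between conditions by -0.97 to -0.75, the log2 Jun sum by -0.92 to -0.63, the log2 ratio of both by -0.12 to 0.04, the share of *Fosl1* and *Fosl2* by 9.79 to 13.0 points and that of *Jund* by -1.93 to 0.49 points. The log2 ratios shifted by 1.42 to 1.86 for *Fosl1* to *Fos*, 1.13 to 1.38 for *Fosl2* to *Fos*, 0.12 to 0.44 for *Jund* to *Jun* and 0.40 to 0.61 for *Junb* to *Jun*.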
